A study of Mus musculus with 2 samples.

Results

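The platelet-derived growth factor (PDGF) genes described here were the 4 ligand genes *Pdgfa*, *Pdgfb*, *Pdgfc* and *Pdgfd* and the 2 receptor genes *Pdgfra* and *Pdgfrb*, 6 of the 31253 genes listed in the count tables. They were chosen by name and not by a rule on their values, though earlier results of these data were known at the time. The cells came from the periosteum, the sheath around bone, of femurs and tibias of mice at 8 weeks. One library was prepared from Prx1 Cre; Ai9/+ mice (control), and the other from mice that also carried Piezo1 fl/fl (Piezo1flfl). Both thus share the Prx1 Cre transgene, which is active in limb mesenchyme, and the Ai9 reporter, and in both the labelled cells were sorted before capture on the BD Rhapsody system, which counts the 3′ ends of mRNA with unique molecular identifiers (UMIs). Each genotype is 1 library. The number of animals behind each was not given in the sources used here.

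PDGFs are paired ligands for 2 receptor tyrosine kinases. The A and C chains bind PDGFRα, a receptor known for its use in fibroblasts and mesenchymal progenitors, while the B and D chains bind PDGFRβ, with B binding both. In blood vessels, endothelial PDGF-B recruits PDGFRβ-bearing mural cells, that is, pericytes and smooth muscle. The C and D chains are secreted in a latent form that proteases have to cut.

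On GRCm38 (GENCODE vM21), the ligand genes lie at chr5:138976014-138997370 on the minus strand (*Pdgfa*), chr15:79995874-80014977 on the minus strand (*Pdgfb*), chr3:81036416-81214040 on the plus strand (*Pdgfc*) and chr9:6168584-6378850 on the plus strand (*Pdgfd*). *Pdgfra* lies at chr5:75152292-75198215 on the plus strand, the same chromosome as *Pdgfa*, and *Pdgfrb* on the plus strand of chromosome 18. A 3′ count does not tell isoforms of these genes apart.

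The control library held 6118 barcodes and 28030299 UMIs, and the Piezo1flfl library 7469 barcodes and 32337308 UMIs, of which 4418 and 5084 cells were retained with medians of 4812.5 and 4593 UMIs per cell. The libraries shared 50 barcodes. *Piezo1* itself had 132 UMIs in retained control cells and 69 in Piezo1flfl cells, and a 3′ count need not cover the floxed exons, so it checks neither label. Cells were grouped by clustering without the PDGF genes and without 40 other genes of the pathway, and a cluster was named from marker genes, as "X-like", only where these were clear. SSPC-1 and SSPC-2 are the names the study gave to a pair of skeletal stem and progenitor populations, of which SSPC-2 carries osteoblast precursor genes. The study counted *Pdgfra* among the genes that define SSPC-1, and it was left out of the markers used here. Not all retained cells were mesenchymal by their markers: macrophage-like cells made up 8.96% and 5.72% of retained cells. They had *Prrx1*, the gene whose promoter drives the Cre, at 55.1 and 48.9 UMIs per 1000000 UMIs of the class (CPM), whereas the SSPC-1-like class of the control stood at 1802 CPM. These levels do not show whether a cell carried the label when sorted, and the reporter was not read here. Clusters that mixed markers are called by their leading gene. The one set beside the SSPC-1-like cells for the Piezo1flfl library, 916 Chad-led cells, carried all 7 SSPC-1 markers but also 18786 CPM of summed tendon markers, against 14172 CPM in the SSPC-1-like cells of the control. Its mean log2 difference over the markers was higher for the tendon list (4.47), which holds *Chad*, than for the SSPC-1 list (3.86). It was used because it led its library for SSPC-1, while the tendon-like cluster led for tendon (5.62), so it is not a clear counterpart. Levels below are UMIs of a gene summed over a class over the UMI total of that class, scaled to CPM, with exact 95% Poisson intervals in brackets. Shares of cells with a UMI come from cells thinned to 2500 UMIs each. Cells with fewer UMIs were left out of these shares, which kept 3936 of 4418 and 4504 of 5084 cells. A single library per genotype allows no test, and the intervals describe counting error alone, not the spread between animals.

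**Figure D1:**
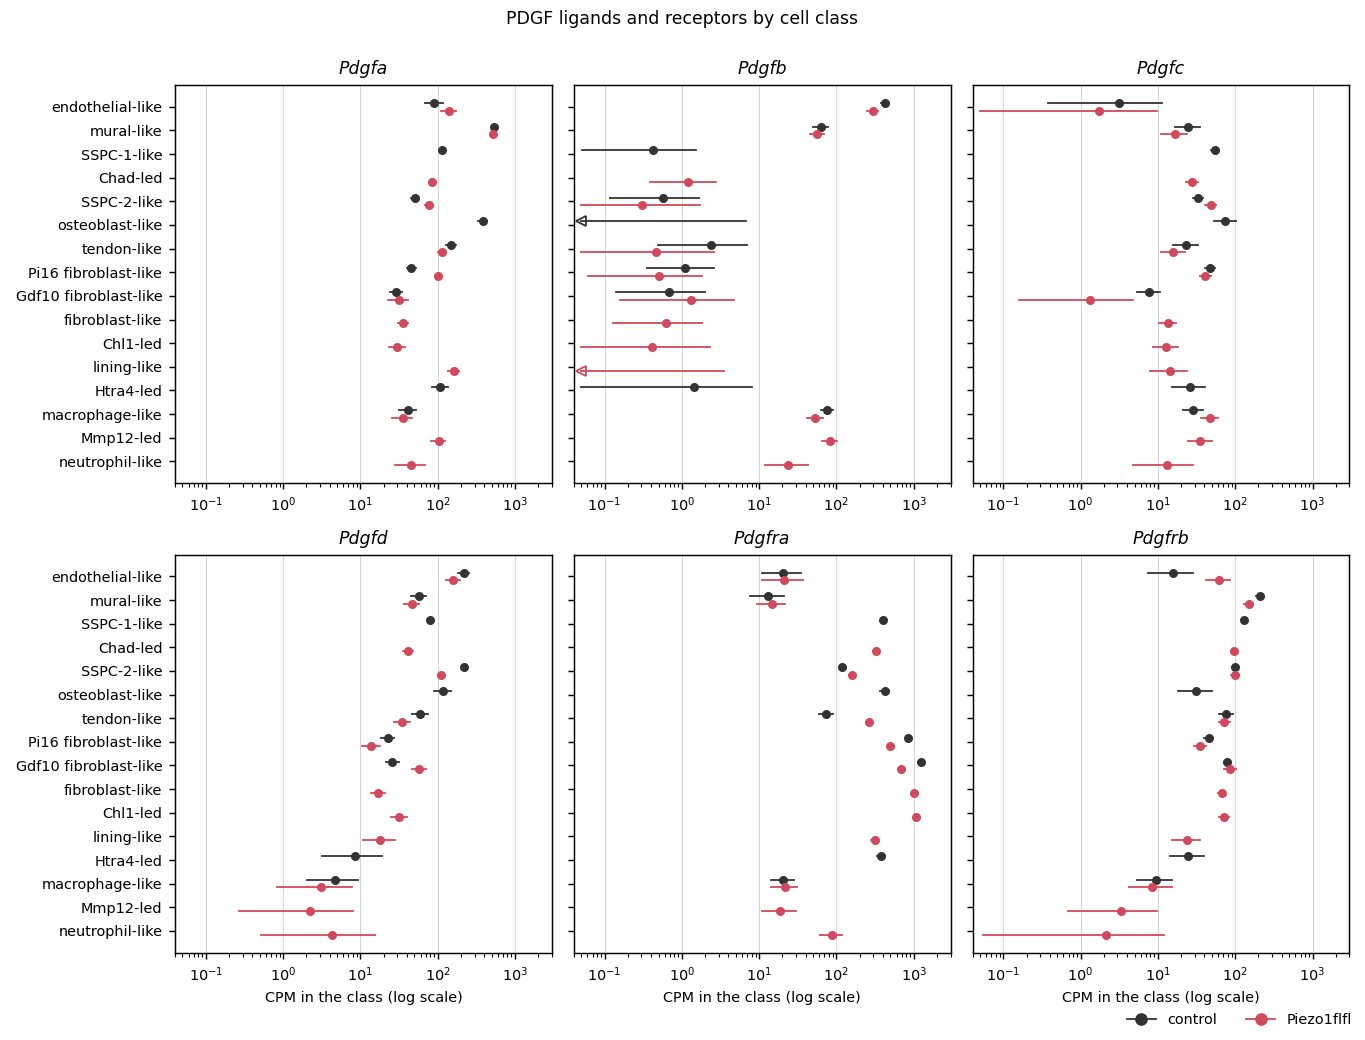
Level of each PDGF gene by cell class, as CPM on a log scale, in classes of at least 50 cells. Points are the summed UMIs of a class over its total, lines are exact 95% Poisson intervals drawn from 0.05 CPM upwards, open arrowheads mark classes without a UMI, and black and red mark the control and Piezo1flfl libraries. *Pdgfb* was above 20 CPM in endothelial-like, mural-like, macrophage-like, Mmp12-led and neutrophil-like cells and below 3 CPM in every other class, while *Pdgfra* was highest in Gdf10 fibroblast-like cells of the control and in Chl1-led and fibroblast-like cells of the Piezo1flfl library.

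Of the ligands, *Pdgfb* was the one most confined to a class. Endothelial-like cells had 426 CPM (377 to 480) in the control and 294 CPM (252 to 342) in the Piezo1flfl library, which was 43.6 times (36.5 to 52.0) and 31.5 times (25.8 to 38.3) the level of all other cells together. They were 3.89% and 2.77% of retained cells and held 52.9% and 39.2% of all *Pdgfb* UMIs. Thinning kept 118 of 172 and 94 of 141 endothelial-like cells, and 61.0% and 44.7% of those kept had a *Pdgfb* UMI. The highest class exceeded the next at least 5-fold for 1 of the 6 members in the control, *Pdgfb*, and for 0 of 6 in the Piezo1flfl library, where 6.21% and 4.49% of all genes with at least 100 UMIs did so. At 2-fold it was 1 of 6 and 2 of 6 (*Pdgfa* and *Pdgfb*), against 18.1% and 15% of all such genes.

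Macrophages and mural cells were further sources of *Pdgfb* in both libraries. Macrophage-like cells had 75.7 CPM (63.2 to 89.9) in the control and 52.7 CPM (41.0 to 66.7) in the Piezo1flfl library, and the Mmp12-led cells of the latter, which carried macrophage markers together with hemoglobin mRNA, had 81.8 CPM (64.2 to 103). Mural-like cells had 62.9 CPM (50 to 78.1) and 56.7 CPM (45.8 to 69.5). The macrophage-like and mural-like levels could not be told apart in either library. In mural-like cells the summed endothelial markers were 3.88% and 3.52% of their level in endothelial-like cells, while *Pdgfb* was at 62.9 of 426 CPM and 56.7 of 294 CPM. Leaving out the 12 and 3 mural-like cells with at least 2 endothelial markers left *Pdgfb* at 59.9 and 56.6 CPM.

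In the mesenchymal classes *Pdgfb* was close to absent. The 1601 fibroblast-like cells of the control held 8 UMIs and the 1692 of the Piezo1flfl library 7, or 0.893 and 0.677 CPM. These pools leave out 379 Chl1-led cells of the Piezo1flfl library, which carried fibroblast markers but stayed unnamed because *Cxcl12*, of the marrow stroma list, was among their leading genes. SSPC-1-like cells held 2 UMIs among 807 cells, and osteoblast-like cells held 0 of 60 cells' UMIs, which allows up to 5.48 CPM at 3 counts.

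Within the macrophages of the control, a finer clustering separated 241 cells led by *Lyz1*, *Ccr2*, *Mpeg1*, *Cd52* and *Il1b* from 155 led by *Retnla*, *Vsig4*, *Cd209f*, *Lyve1* and *Ccl24*. The former had *Pdgfb* at 112 CPM (91.9 to 135) and *Pdgfc* at 14.1 CPM (7.70 to 23.6). In the latter the values were 25.3 CPM (15.0 to 40.0) for *Pdgfb* and 49.2 CPM (34.3 to 68.5) for *Pdgfc*, so the order of the 2 clusters was opposite for these 2 ligands. In the Piezo1flfl library the Vsig4-led macrophage-like cells had *Pdgfc* at 46.6 CPM (35.6 to 59.8) and *Pdgfb* at 52.7 CPM. The Mmp12-led cells there had 35.4 CPM of *Pdgfc*, from 32 UMIs, and 81.8 CPM of *Pdgfb*. A ratio between these clusters was not calculated, so the opposite order was described for the control alone.

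*Pdgfa*, which encodes the ligand of PDGFRα homodimers, was highest in mural-like cells, at 538 CPM (499 to 580) in the control and 521 CPM (487 to 557) in the Piezo1flfl library. These cells were 6.70% and 7.14% of cells and held 28.6% and 29.6% of the *Pdgfa* UMIs. After thinning, 66.9% and 65.1% of mural-like cells had a *Pdgfa* UMI, against 11.3% and 6.52% of macrophage-like cells, whose median depth was 3678.5 and 3741 UMIs per cell, near the 3745 and 3948 of mural-like cells. Relative to all fibroblast-like cells, the mural-like level was 14.5 times (12.7 to 16.5) higher in the control and 8.67 times (7.81 to 9.63) higher in the Piezo1flfl library.

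In the control, *Pdgfa* differed between the SSPC-1-like, SSPC-2-like and osteoblast-like classes, which were not placed in an order of differentiation. It stood at 113 CPM (104 to 123) in SSPC-1-like cells, 50.9 CPM (45.0 to 57.4) in SSPC-2-like cells and 383 CPM (333 to 439) in osteoblast-like cells, which express *Bglap*, *Dmp1* and *Ifitm5*. The log2 ratio of the second class over the first was -1.16 (-1.37 to -0.94). In the Piezo1flfl library, where no separate osteoblast cluster formed and the SSPC-2-like cells carried 9039 CPM of summed osteoblast markers against 4515 CPM in the control, the SSPC-2-like level was 77.8 CPM (68.6 to 88.0) and that of the Chad-led cells 84.7 CPM (76.1 to 94). Their log2 ratio, -0.12 (-0.36 to 0.11), did not exclude equal levels and changed sign under 2 of the alternatives. Tendon-like cells, with 151 CPM (130 to 174) and 114 CPM (100 to 129), were above both SSPC-1-like and Chad-led cells, by 1.33 times (1.12 to 1.57) and 1.35 times (1.14 to 1.59).

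*Pdgfc*, a second ligand for PDGFRα, had no class that stood far above the others. In the control osteoblast-like cells had 74.9 CPM (53.7 to 102), the SSPC-1-like class 54.6 CPM (48.1 to 61.7) and the Pi16 fibroblast-like class 47.4 CPM (41.3 to 54.2), and neighbours in this order did not differ beyond counting error. In the Piezo1flfl library SSPC-2-like cells came first with 48.3 CPM (41.1 to 56.5), followed by macrophage-like and Pi16 fibroblast-like cells, again without a separation. Chad-led cells there had 27.6 CPM, 0.571 times (0.446 to 0.730) the SSPC-2-like level. In the control the SSPC-1-like level was 1.65 times (1.36 to 2.02) that of SSPC-2-like cells, the opposite direction. Between the fibroblast classes the levels differed. Gdf10 fibroblast-like cells had 7.68 CPM (5.32 to 10.7) and 1.33 CPM (0.161 to 4.80), so that Pi16 fibroblast-like cells were 6.17 times (4.28 to 9.14) and 31.0 times (8.45 to 258) higher, the second ratio resting on 2 UMIs in the Gdf10 class. Across all fibroblast-like cells the level did not differ from that of mural-like cells beyond counting error in either library (1.13 times, 0.781 to 1.69, and 1.35 times, 0.905 to 2.10). Endothelial-like cells held 2 and 1 *Pdgfc* UMIs.

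*Pdgfd*, which encodes a ligand for PDGFRβ, was led by SSPC-2-like and endothelial-like cells. In the control the 2 classes were level, at 220 CPM (208 to 233) and 219 CPM (184 to 258), with a ratio of 1.01 (0.845 to 1.21). In the Piezo1flfl library SSPC-2-like cells had 111 CPM (99.6 to 123) and endothelial-like cells 159 CPM (128 to 195), a ratio of 0.698 (0.553 to 0.889). SSPC-2-like cells, 16.9% and 10.4% of cells, held 54.1% and 32.9% of the *Pdgfd* UMIs. Their level exceeded that of SSPC-1-like or Chad-led cells 2.75-fold (2.45 to 3.10) and 2.67-fold (2.22 to 3.22), a direction opposite to that of *Pdgfa* in the control. Mural-like cells, with 56.8 and 46.4 CPM, were 2.33 times (1.77 to 3.05) and 2.13 times (1.62 to 2.77) above all fibroblast-like cells. The 33 perineurial-like cells of the control, which form the sheath of nerves, had 157 CPM (103 to 229) from 27 UMIs.

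**Figure D2:**
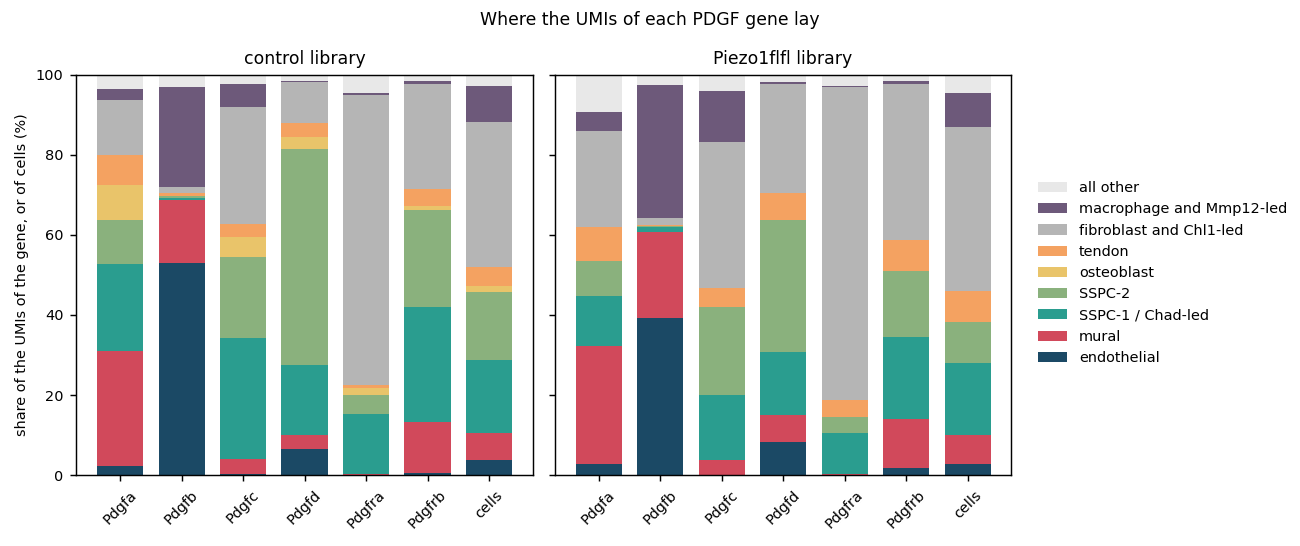
Share of the UMIs of each PDGF gene that lay in each group of classes, in percent, beside the share of retained cells (last bar), for the control (left) and Piezo1flfl (right) library. Endothelial-like cells were 3.89% and 2.77% of cells and held 52.9% and 39.2% of *Pdgfb* UMIs, mural-like cells held 28.6% and 29.6% of *Pdgfa* UMIs, and SSPC-2-like cells held 54.1% and 32.9% of *Pdgfd* UMIs.

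Turning to the receptors, *Pdgfra* divided the fibroblast and progenitor classes from the vascular ones. All fibroblast-like cells together had 1036 CPM (1015 to 1057) in the control and 758 CPM (741 to 775) in the Piezo1flfl library, and mural-like cells 13.0 CPM (7.60 to 20.9) and 14.6 CPM (9.38 to 21.8), ratios of 79.4 (49.6 to 136) and 51.8 (34.8 to 80.9). The levels in mural-like, endothelial-like and macrophage-like cells did not differ from each other beyond counting error within a library. The shares of thinned cells with a UMI in these 3 classes ran from 1.63% to 4.35%, against 83.9% and 76.3% of fibroblast-like cells with median depths of 4772 and 5201.5 UMIs, and such shares were read as background. In the control, the highest class of at least 50 cells was Gdf10 fibroblast-like with 1232 CPM (1200 to 1265), followed by Pi16 fibroblast-like cells with 844 CPM (818 to 871). The Chl1-led cells came first in the Piezo1flfl library with 1079 CPM (1038 to 1122), ahead of the Ccl11-led fibroblast-like cells with 998 CPM (970 to 1026). The 33 perineurial-like cells stood at 1757 CPM (1564 to 1966), 1.43 times (1.27 to 1.60) the Gdf10 class.

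Among skeletal classes of the control, *Pdgfra* was at 405 CPM (387 to 424) in SSPC-1-like cells, 119 CPM (110 to 128) in SSPC-2-like cells and 420 CPM (367 to 478) in osteoblast-like cells. The SSPC-1-like level was 3.42 times (3.12 to 3.74) that of SSPC-2-like cells, and in the Piezo1flfl library the Chad-led level was 2.08 times (1.88 to 2.31). Osteoblast-like cells were 3.54 times (3.03 to 4.12) above SSPC-2-like cells. In the control, *Pdgfra* thus shared with *Pdgfa* a lower value in SSPC-2-like cells than in SSPC-1-like and osteoblast-like cells. *Pdgfd* was higher in SSPC-2-like cells than in both of these classes.

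*Pdgfrb*, the receptor of mural cells, was highest in mural-like cells of both libraries, at 207 CPM (183 to 233) and 149 CPM (131 to 169). It was spread more widely than *Pdgfra*: SSPC-1-like cells had 130 CPM (120 to 140), Chad-led cells 96.9 CPM (87.7 to 107), and SSPC-2-like cells 97.9 CPM (89.7 to 107) and 99.1 CPM (88.6 to 110). Mural-like cells exceeded all fibroblast-like cells by 3.33 times (2.87 to 3.86) and 2.59 times (2.22 to 3.01), and SSPC-1-like cells by only 1.60 times (1.38 to 1.85). The mural-like cells held 12.7% and 12.3% of the *Pdgfrb* UMIs, and SSPC-1-like cells 28.8% in the control. Osteoblast-like cells were low, at 31.0 CPM (18.1 to 49.7), with SSPC-2-like cells 3.15 times (1.95 to 5.46) above them. Between the fibroblast classes, Gdf10 fibroblast-like cells exceeded Pi16 fibroblast-like cells by 1.75 times (1.47 to 2.09) and 2.46 times (1.92 to 3.14), as they did for *Pdgfra* by 1.46 times (1.40 to 1.52) and 1.37 times (1.27 to 1.48).

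By its markers, the mural-like class leaned mostly to smooth muscle. Counting, in each cell, the markers of a pericyte list and of a smooth muscle list with a UMI, 271 of 296 control cells had more of the smooth muscle list and 15 more of the pericyte list, of which 6 were within 1 marker. In the 15 cells *Pdgfrb* was at 746 CPM (523 to 1033) from 36 UMIs, and in the 271 cells at 169 CPM (146 to 193). In the Piezo1flfl library 4 cells leaned to the pericyte list, with 705 CPM (338 to 1296) from 10 UMIs, and 354 to smooth muscle, with 143 CPM (125 to 163). The intervals of the 2 ranges did not overlap in either library. The 10 and 5 cells with equal numbers of both lists had *Pdgfrb* at 734 CPM (491 to 1054) and 230 CPM (74.5 to 536). *Pdgfa* showed no such division, with 435 CPM (269 to 665) and 538 CPM (497 to 581) in the control. Mural-like cells had median mitochondrial shares of 12.2% and 11.9%, against 3.94% to 5.86% in the other control classes of at least 50 cells, and with a mitochondrial limit of 10% the ratio of *Pdgfrb* in mural-like over fibroblast-like cells moved on the log2 scale from 1.74 to 2.44 and from 1.37 to 1.94. Only 99 of the 296 and 98 of the 363 mural-like cells were below that limit, so these ratios describe a smaller, selected set.

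The endothelial-like class was divided in the same way, by an arterial and a venous marker list, into ranges and not types. In the control, 71 cells leaned to the arterial list, 30 of them within 1 marker, and 55 to the venous list, 33 of them within 1 marker. *Pdgfd* was at 309 CPM (249 to 379) in the former and 115 CPM (72.8 to 172) in the latter. In the Piezo1flfl library the 70 arterial-leaning cells had 203 CPM (156 to 261.2) and the 36 venous-leaning cells 72.0 CPM (35.9 to 129). For *Pdgfb* the control values were 417 CPM (347 to 497) and 330 CPM (255 to 419), whose intervals overlapped, and those of the Piezo1flfl library 310 CPM (250.2 to 380) and 164 CPM (106 to 241), whose intervals did not. The arterial-leaning cells of that library also held 34 *Pdgfrb* and 63 *Pdgfa* UMIs, against 1 and 14 in the venous-leaning cells. The split was not repeated without the 53 endothelial-like cells there that had at least 2 mural markers. The 46 control cells and 35 Piezo1flfl cells with equal numbers of both lists belonged to neither range. They had *Pdgfb* at 580 CPM (462 to 719) and 421 CPM (313 to 553), above the values of both ranges but with intervals that overlapped those of the arterial one, and *Pdgfd* at 175 CPM (113 to 258) and 157 CPM (94.4 to 245), between them.

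**Figure D3:**
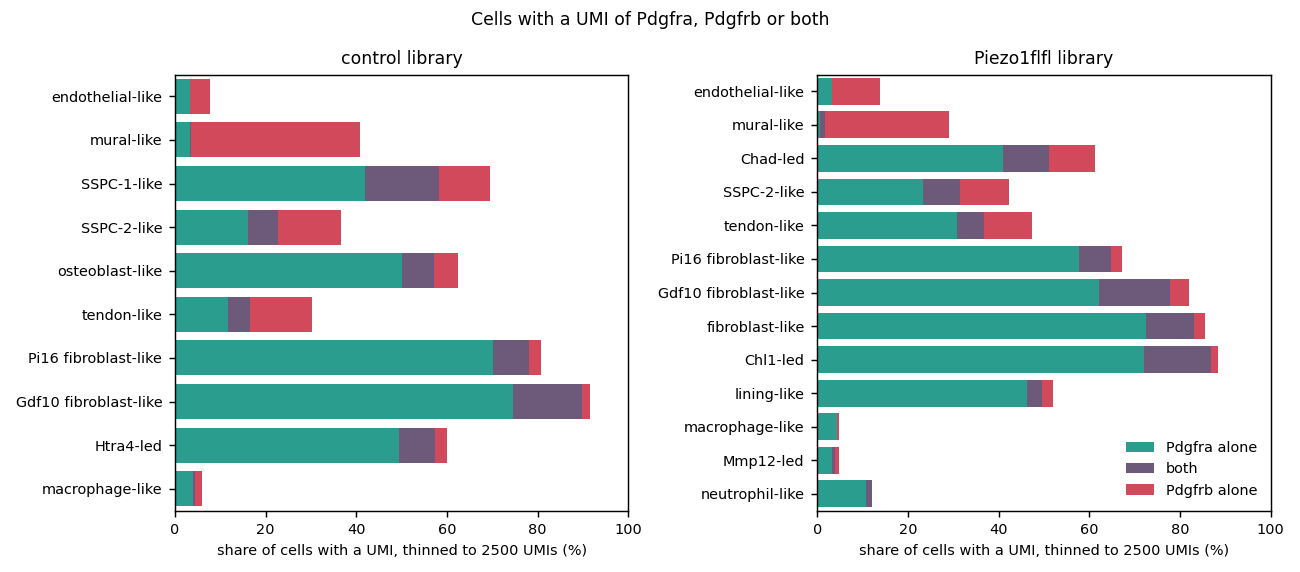
Share of cells with a UMI of *Pdgfra* alone, *Pdgfrb* alone or both, in percent of cells thinned to 2500 UMIs, by class and library. In the control, 16.1% of SSPC-1-like cells had both receptors, as had 15.1% of Gdf10 fibroblast-like cells and 0.403% of mural-like cells, where the share with *Pdgfrb* was 37.5%.

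Both receptors were found in the same cell in several classes. In SSPC-1-like cells 16.1% (13.5% to 19.0%) had UMIs of both, where 16.0% would follow if the 2 were found independently. In Gdf10 fibroblast-like cells it was 15.1%, against 15.3%, and in Chad-led cells 10.2%, against 10.4%. In SSPC-2-like cells, 32.0% of the cells with *Pdgfrb* also had *Pdgfra*, and 20.2% of those without it, and in the Piezo1flfl library the shares were 43.0% and 28.9%. No test was made on cells of 1 library.

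Levels of ligands and receptors were also read side by side, within classes and between them. Mural-like cells were highest for *Pdgfa*, whose receptor *Pdgfra* was at background there. The *Pdgfrb* of these cells stood beside their own *Pdgfb* (62.9 and 56.7 CPM) and *Pdgfd* (56.8 and 46.4 CPM). Higher levels were found for *Pdgfb* in endothelial-like cells and for *Pdgfd* in endothelial-like and SSPC-2-like cells. In the control, SSPC-1-like cells had *Pdgfa* and *Pdgfc* together with both receptors, as had other classes, among them SSPC-2-like, osteoblast-like and tendon-like cells. Pi16 fibroblast-like cells had *Pdgfc* at 47.4 and 41.2 CPM beside *Pdgfra*. These are levels of mRNA, and binding was not measured.

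The Pi16 fibroblast-like cells differed among themselves in their ligands. The finer clustering was made on each whole library, so its clusters also took cells of other classes, and the values here are those of the Pi16 fibroblast-like cells that fell in each. In the control, 405 of the 805 cells (50.3%) fell in a cluster led by *Pi16*, *Gap43*, *Adamts16*, *Efemp1* and *Sv2c*, and had *Pdgfa* at 21.4 CPM (15.6 to 28.5) and *Pdgfd* at 39.9 CPM (31.9 to 49.3). The 138 cells (17.1%) in a cluster led by *Serpinb7*, *Colec10*, *Sema3e*, *Ptgs1* and *Anxa8* had *Pdgfa* at 85.8 CPM (67.4 to 108) and *Pdgfd* at 5.80 CPM (1.88 to 13.5). A further 197 cells (24.5%), in a cluster led by *Col6a5*, *Ociad2*, *Dhrs9*, *Gldn* and *Dkk2*, had 67.9 CPM (53.8 to 84.7) and 6.02 CPM (2.42 to 12.4). The order was thus opposite for the 2 ligands, and it was seen in the Piezo1flfl library too. There, 181 of the 550 cells (32.9%) fell in a cluster led by *Dact2*, *Pi16*, *Rorb*, *4930404H11Rik* and *Gap43* and had 32.2 CPM (22.2 to 45.2) of *Pdgfa* and 34.1 CPM (23.8 to 47.5) of *Pdgfd*. The 368 cells (66.9%) in a cluster led by *Slurp1*, *Ociad2*, *Sema3e*, *Crabp2* and *Anxa8* had 125 CPM (112 to 138) and 6.84 CPM (4.18 to 10.6). *Pdgfra* was at 898 CPM in the first and 537 CPM in the second of these control sets, whereas the 2 sets of the Piezo1flfl library stood at 486 and 493 CPM.

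SSPC-2-like cells also divided. In those of the Piezo1flfl library, the 387 cells (73.4%) in a cluster led by *Mmp13*, *Prss35*, *Bglap*, *Tnn* and *Bglap2* had *Pdgfd* at 131 CPM (117 to 146) and *Pdgfra* at 126 CPM (112 to 140). The other 140 (26.6%), in a cluster led by *Grem1*, *Kcnj2*, *Shisal1*, *Ostn* and *Epha4*, had 43.3 CPM (29.8 to 60.8) and 261.1 CPM (226 to 300.0). Of the control cells, 213 of 746 (28.6%) fell in an osteoblast-like cluster led by *Dmp1*, *Ifitm5*, *Bglap*, *Spp1* and *Bmp8a*, and these had *Pdgfd* at 284 CPM (254 to 317) and *Pdgfra* at 164 CPM (141 to 190). The 527 cells (70.6%) in an SSPC-2-like cluster had 204 CPM (190 to 218) and 105 CPM (95.2 to 115), so both genes were higher in the former set. *Pdgfa* was at 59.7 CPM (46.3 to 75.9) and 48.8 CPM (42.3 to 56.0), with overlapping intervals.

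The 2 libraries were then set side by side in 6 classes of at least 50 cells that both held under the same name. A seventh, the macrophage-like class, was left out because the leading genes of its Piezo1flfl cluster held 1 marker of another list, *Pf4*, and 0 of its own. Of 36 pairs of a member and a class, 30 had at least 20 UMIs in the higher library, and 5 of these (16.7%) were at least 2-fold apart, against 7.67% of all genes in the same classes. The range over the classes was wide for all genes too, with 3.62% in mural-like, 5.83% in SSPC-2-like, 6.9% in endothelial-like, 7.31% in Pi16 fibroblast-like, 9.73% in tendon-like and 11.7% in Gdf10 fibroblast-like cells past 2-fold. Of the 5 pairs, 4 were higher and 1 was lower in the Piezo1flfl library, and 11 of the 30 intervals held a ratio of 1. With macrophage-like cells, where 7.33% of all genes were past 2-fold, the count was 5 of 34 pairs (14.7%), and *Pdgfa* there was at 41.1 and 35.1 CPM, *Pdgfb* at 75.7 and 52.7 CPM, *Pdgfc* at 28.7 and 46.6 CPM and *Pdgfra* at 20.5 and 21.4 CPM. The median log2 ratio of the 30 pairs, Piezo1flfl over control, was -0.17, and in single classes the median of all genes lay between -0.12 and 0.07. With 1 library per genotype, a difference of genotype and a difference between 2 preparations cannot be told apart.

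**Figure D4:**
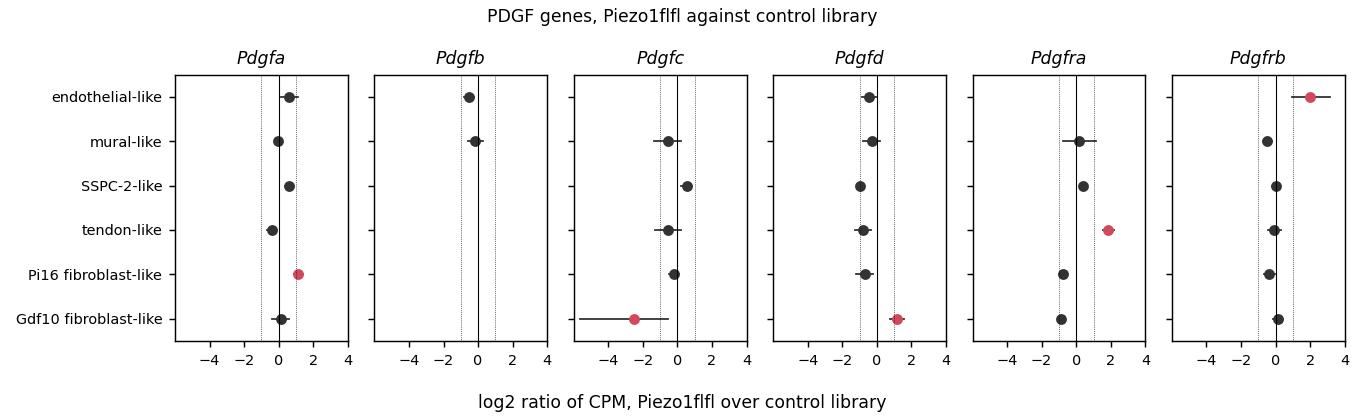
log2 ratio of CPM in the Piezo1flfl over the control library for each PDGF gene in the 6 classes compared. Points are ratios of summed UMIs, lines exact 95% conditional intervals for counting error only, dotted lines mark 2-fold, red points are pairs past 2-fold, and pairs with fewer than 20 UMIs in the higher library are left out. The 5 red points are *Pdgfa* in Pi16 fibroblast-like, *Pdgfc* and *Pdgfd* in Gdf10 fibroblast-like, *Pdgfra* in tendon-like and *Pdgfrb* in endothelial-like cells.

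*Pdgfra* in tendon-like cells was at 73.4 CPM (59.2 to 90.0) in the control and 267 CPM (246 to 290) in the Piezo1flfl library, a log2 ratio of 1.86 (1.55 to 2.20). The tendon-like cells of the 2 libraries also differed in other markers: the summed level of the 5 fibroblast markers was 604 and 3115 CPM, and that of the 7 tendon markers 48538 and 33226 CPM. With cells classed one by one from their own markers, the log2 ratio was 0.46, and with doublets kept it was 0.77. The part of the markers in the result was not tested.

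*Pdgfrb* in endothelial-like cells was at 15.6 CPM (7.48 to 28.7) from 10 UMIs and at 61.0 CPM (42.5 to 84.8) from 35 UMIs. All 9 mural markers had UMIs in these clusters, and their summed level was 6.60% of that of mural-like cells in the control and 17.8% in the Piezo1flfl library. Without the 49 and 53 endothelial-like cells that had at least 2 mural markers, *Pdgfrb* was left with 2 and 0 UMIs, and the difference was no longer seen. *Pdgfb* in the same cells remained, at 461 and 344 CPM.

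*Pdgfa* in Pi16 fibroblast-like cells was at 45.6 CPM (39.6 to 52.3) and 101 CPM (91.1 to 111), a log2 ratio of 1.14 (0.90 to 1.39). The class was made up differently in the 2 libraries: 50.3% and 32.9% of its cells fell in the finer clusters with *Pi16* among the 5 leading genes, where *Pdgfa* was at 21.4 and 32.2 CPM, and 17.1% and 66.9% in those with *Sema3e* among them, at 85.8 and 125 CPM. With a mitochondrial limit of 10% and with the finer clustering, where the name passed to other clusters, the log2 ratio was -0.57 and -0.62. In Gdf10 fibroblast-like cells *Pdgfd* was at 26.0 CPM (21.5 to 31.2) and 57.8 CPM (46.3 to 71.3), and *Pdgfc* at 7.68 and 1.33 CPM from 34 and 2 UMIs. This class held 796 cells in the control and 228 in the Piezo1flfl library, where a separate fibroblast-like cluster of 914 cells led by *Ccl11*, a gene among the leading genes of the control's Gdf10 class, had *Pdgfd* at 17 CPM (13.6 to 21.1).

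Just under 2-fold, *Pdgfd* in SSPC-2-like cells was at 220 and 111 CPM, a log2 ratio of -0.99 (-1.17 to -0.82), beside summed osteoblast markers of 4515 and 9039 CPM. Under the alternatives this ratio ran from -2.26 to -0.95 and was past 2-fold in 5 of 9. *Pdgfd* was also lower in tendon-like (-0.80), Pi16 fibroblast-like (-0.71), endothelial-like (-0.46) and mural-like cells (-0.29, with an interval that held 0), unlike in the Gdf10 class. Over all retained cells, whose make-up also differed, it was at 84.7 and 38.8 CPM. *Pdgfra* was lower in Pi16 and Gdf10 fibroblast-like cells of the Piezo1flfl library, by log2 ratios of -0.77 (-0.85 to -0.70) and -0.87 (-0.97 to -0.77), and over all fibroblast-like cells by -0.45 (-0.49 to -0.41). With the Chl1-led cells counted in this pool, the last of these was -0.34 (-0.38 to -0.30). In the pool without them 4.1% of all genes were past 2-fold, and no member was. Mural-like *Pdgfa* hardly differed, with a log2 ratio of -0.05 (-0.19 to 0.10), and *Pdgfrb* in SSPC-2-like cells neither, with 0.02 (-0.19 to 0.22).

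Other genes of the pathway were read from a list of 40. It was grouped into 7 proteases that can process PDGFs, 5 co-receptors and binders, 15 adaptors and effectors and 13 genes listed as brakes on the signal. The phosphatase gene *Ptpn11* was listed with the brakes. The groups are labels, and what each gene does to the signal in these cells was not measured. At least 100 UMIs in each library were found for 38. Of these, 15 had the same highest class in both libraries, 8 of them adaptors and effectors, which is 39.5% against 34.2% of all genes with as many UMIs. In 3 of the 38 (7.89%) that level was also at least 2 times the next class in both, against 6.26% of all such genes. All 3 were adaptors or effectors with their highest level in endothelial-like cells. *Nck1*, an adaptor that binds phosphorylated receptors, was at 311 and 214 CPM. *Yes1*, a kinase of the Src family, was at 90.5 and 55.7 CPM, and *Plcg1*, the phospholipase recruited by the receptors, at 64.0 and 57.5 CPM. None of the proteases, binders or brakes met the rule, which asks for the same cluster name in both libraries. The protease *Pcsk6*, singled out after its values were seen, was highest in Htra4-led cells of the control at 1544 CPM, 2.11 times the next class, and in lining-like cells of the Piezo1flfl library at 1478 CPM, 3.38 times the next. Both clusters had all 5 lining markers detected, and the Htra4-led one all 7 chondrocyte markers as well.

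Across the 23 pairs of class and library with at least 50 cells, the genes with levels most like those of the members were taken among 9089 genes. The points share libraries and differ in depth, so the correlations are a description. *Pdgfb* was nearest to *Cd93*, *Notch1* and *Cd36* (Pearson's r of log2 levels 0.97, 0.95 and 0.94), and *Pdgfrb* to *Dtx3*, *Arhgef25* and *Tgfb3* (0.97, 0.96 and 0.94). *Pdgfd* was nearest to *Smad6*, *Cdc42ep1* and *Timp3* (0.93, 0.92 and 0.88), and *Pdgfra* to *Scd1*, *L3hypdh* and *Naaladl2* (0.92, 0.91 and 0.91). The nearest genes of *Pdgfa* were *Tpm1*, *Ppm1e* and *Sorbs2* (0.85, 0.81 and 0.80), and *Pdgfc* had the weakest neighbours, *Notch2*, *Slc35b2* and *Sdc4* (0.76, 0.73 and 0.66). Between members, the strongest relations were a negative one of *Pdgfb* with *Pdgfra* (r = -0.88) and a positive one of *Pdgfd* with *Pdgfrb* (r = 0.68).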

How the data were processed

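Per the labels, the authors sorted periosteal cells, captured them on the BD Rhapsody system and processed the reads with fastp, UMI-tools, STAR and Seurat 4.0.3. The deposited values are UMI counts per gene and barcode, without normalization. The genome build and annotation were not given in the sources used here, and gene positions were taken from GENCODE vM21 by identifier.

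Each library was treated alone. Barcodes were kept where they had between 1000 and 5000 genes and less than 25% of UMIs from mitochondrial genes, and doublets called by Scrublet in scanpy 1.11.5 (46 of 5551 and 67 of 6784 barcodes scored) were removed. Seurat 5.3.0 (R 4.3.3) selected 2000 features by vst, from which the members and the other pathway genes were left out, and clustered on 20 principal components at resolution 0.4 with seed 0.

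Clusters were named from 22 marker lists that hold no member. Where another cluster scored higher on a cluster's best list, a list of near score on which it led all clusters was used instead. A name needed at least 3 detected markers, each in at least 10% of cells and at least 2 times the level of other clusters, a mean log2 difference of at least 1.5 over its markers, and 10 leading genes that did not hold more markers of another class with at least 3 detected markers of its own. Classes were compared between libraries only where their leading genes held no more markers of another list than of their own. Members and lists were chosen with earlier results of these data known, and the naming thresholds were set after the clusters and the members' levels were seen. The limit between libraries was 2-fold, for pairs with at least 20 UMIs in the higher one. Pathway genes were named where at least 100 UMIs in each library and the same highest class, at least 2 times the next, were found in both. For each member the 3 genes most correlated across classes were named, with log2(CPM + 1) and at least 200 UMIs in each library, and for the finer clusters, made on each whole library at resolution 0.8, the 5 leading genes. The calculation of ratios and intervals was checked on simulated Poisson counts with known folds. Such counts hold no differences between the cells of a class, so this does not show that the intervals cover the spread of real cells. The alternatives were other limits on genes (500 to 6000) and mitochondrial UMIs (10%), doublets kept, resolutions of 0.2 and 0.8, classes from each cell's own markers, totals without mitochondrial and ribosomal protein genes, the mean of single cells, thinning to 2500 UMIs, and a minimum of 50 UMIs. The 3 added after seeing the data were leaving out mural-like and endothelial-like cells with at least 2 markers of each other, comparing macrophage-like cells too, and counting Chl1-led cells as fibroblast-like.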

Additional observations from a re-analysis of the deposited data

How the results depend on the processing

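The depth of 1 library per genotype limits what can be said: classes of 60 to 172 cells hold few UMIs of these genes, levels of 1 to 3 UMIs are counts and not differences, and no spread between animals is known. No paired analysis was possible because each genotype is 1 library and no result comes from a test. A value is called moved where it left the 95% interval of its reported value. All values are log2 ratios unless stated, with the control first where both are given.

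Of 154 recomputed values of the ratios between classes and of the count of pairs, 132 stayed with the reported one, 16 moved and 6 changed sign. The latter belong to 2 ratios between classes whose reported intervals already held equal levels. *Pdgfa* in SSPC-2-like over Chad-led cells of the Piezo1flfl library (-0.12) became 0.059 after thinning and 0.027 with the mean of single cells. *Pdgfc* in fibroblast-like over mural-like cells of the control (0.18) became -0.093 after thinning, -0.089 with doublets kept, -0.045 with the mean of single cells and -0.19 with a mitochondrial limit of 10%.

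With that limit, *Pdgfb* in endothelial-like over all other cells moved to 5.94 and 5.40 (from 5.45 and 4.98), and *Pdgfrb* in mural-like over fibroblast-like cells to 2.44 and 1.94. With the mean of single cells the first of these was 5.12 in the control. With doublets kept, *Pdgfra* in fibroblast-like over mural-like cells was 5.19 and 5.01 (from 6.31 and 5.69). With cells classed by their own markers, the *Pdgfra* ratio of the SSPC-1-like or Chad-led class to the SSPC-2-like class was 1.62 and 1.51 (from 1.77 and 1.06), and *Pdgfa* in the opposite ratio was at -0.93 in the control (from -1.16). At resolution 0.2 these were 1.41 and -0.47 in the control, and no SSPC-1-like cluster formed in the Piezo1flfl library, so there is no value. The count of member and class pairs past 2-fold (5) was 3 with at least 50 UMIs, 2 with cells classed by their own markers, 2 after thinning and 3 at resolution 0.2, and between 4 and 7 otherwise. It was 5 with macrophage-like cells compared too. The pairs were not always the same: the 2 found with cells classed by their own markers were *Pdgfc* in SSPC-1 and in tendon cells, neither of them among the 5 reported. With Chl1-led cells counted as fibroblast-like, the 4 ratios of fibroblast-like and mural-like cells in the Piezo1flfl library stayed within their intervals. Of the 30 single pairs between libraries, which are not among the 154 values, 12 changed sign under some alternative, 1 of them past 2-fold: *Pdgfa* in Pi16 fibroblast-like cells (1.14) became -0.57 with a mitochondrial limit of 10% and -0.62 at resolution 0.8. Classing cells by their own markers was not among the alternatives counted for these single pairs. The cause of these changes was not tested.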
